A study of Mus musculus with 2 samples.

Results

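Foregut endoderm without Nkx2-1 was described in a Drop-seq study of mouse embryonic heart tissue, as the epithelial cells that carried RNA of the endoderm factors Foxa1 or Foxa2 and no RNA of Nkx2-1. Drop-seq pairs a cell with a barcoded bead in a droplet and counts each captured mRNA molecule through its unique molecular identifier (UMI). The cells were chosen by UMIs alone. A cell barcode had to hold 400 or more genes and no more than 10% mitochondrial UMIs, 0 UMIs of Nkx2-1, at least 1 UMI of Foxa1 or Foxa2, UMIs of at least 2 of the 5 epithelial genes Epcam, Cdh1, Cldn6, Krt8 and Krt18, 0 UMIs of Trp63, and under 0.5% of its UMIs from the liver genes Afp, Alb, Apoa1 and Apoa2. This gave 93 of 4038 cells in replicate 1 and 99 of 4934 cells in replicate 2, 192 cells in all, here called Nkx2-1-negative cells. Their share was 2.30% in replicate 1 (95% interval by the exact binomial method 1.86% to 2.81%) and 2.01% for the second library (1.63% to 2.44%). All intervals cover counting error only.

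The foregut endoderm is the epithelial tube whose wall gives rise to the pharynx and its pouches, the thyroid, trachea, lungs, oesophagus, stomach, liver, ventral pancreas and first part of the duodenum. Foxa1 and Foxa2 are forkhead factors of the whole tube, and regional factors divide it. Pax9 and Pax1 mark the pharyngeal pouches, Sox2 the anterior and dorsal tube, Nkx2-1 the thyroid and the lung and trachea field, and Pdx1 the pancreas and duodenum region. The endoderm is also a source of Sonic hedgehog (Shh), a secreted ligand received by the splanchnic mesoderm and the second heart field beside it.

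The series concerns Hedgehog-dependent gene networks in cardiac and neural progenitors, and its Drop-seq part used wild-type (WT) CD1 mouse embryos at E10.0. The posterior second heart field (pSHF), a cardiac progenitor region that lies against the foregut, and the heart tube (HT) were dissected and pooled from about 80 embryos for each of 2 libraries. Both libraries belong to 1 group with no treatment and no mutant, so all comparisons below are between cells of the same libraries. Each library mixes many embryos, so embryos cannot be told apart within it.

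The libraries held 5000 and 7497 barcodes with 11958912 and 14131384 UMIs, and cells passing the filters had medians of 1364 and 1505 UMIs. Nkx2-1-negative cells were deeper, with medians of 3802 UMIs (range 534 to 31025) and 3376 UMIs (701 to 19907). Their UMIs summed to 579357 and 506375, and 19 cells in each library held 50% of that sum, so levels below weight deep cells most. The libraries shared 82 barcodes, none of which was an Nkx2-1-negative cell in either library. Levels are given in CPM, the UMIs of a gene scaled to a total of 1e6 over the summed cells of a class in a library, and ± after a mean difference is the standard error of the fit.

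The comparison classes came from the same libraries. Nkx2-1-positive foregut endoderm met the same gate with at least 1 UMI of Nkx2-1 (31 and 9 cells, 180729 and 54891 UMIs). Surface ectoderm had Trp63, at least 2 of the epithelial genes and no Foxa1 or Foxa2 (15 and 34 cells). Non-epithelial cells had no Foxa1 or Foxa2 and fewer than 2 of the epithelial genes (3432 and 4070 cells). Hepatoblasts had at least 0.5% liver gene UMIs and at least 2 of the epithelial genes (31 and 34 cells). Genes used in the gate were left out of every test, and their values describe the gate only.

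The gate had thin edges. Exactly 2 epithelial genes were found in 9 and 23 of the Nkx2-1-negative cells, and a single Foxa1 or Foxa2 UMI carried 50 and 65 of them. Just outside, 9 and 14 cells had 1 epithelial gene, and 11 and 14 cells were left out for liver genes, the closest at 0.673% and 0.505% of UMIs against 0.438% and 0.427% for the highest cells kept. A further 363 and 600 cells, more than were kept, met every other condition but held 0 UMIs of Foxa1 and Foxa2. A cell with no Nkx2-1 UMI may still hold Nkx2-1 RNA. Among gated endoderm cells of replicate 1, the share without Nkx2-1 was 75% of 20 cells under 2000 UMIs and 71.4% of 35 cells with at least 8000. In replicate 2 the shares were 95.8% of 24 cells and 89.5% of 19 cells. Within each library the exact intervals of both shares overlapped.

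The label held against its marker genes. Foxa2, Foxa1, Epcam and Cldn6 were in the gate, and their levels in Nkx2-1-negative cells were 181 and 154 CPM, 157 and 179.7 CPM, 937 and 804 CPM and 608 and 636 CPM in replicates 1 and 2. Shh, the marker that the gate did not use, reached 178 and 348 CPM against 3.39 and 3.63 CPM in non-epithelial cells. Markers of other cell types were present too, at levels that differed by list. Of 8 cardiomyocyte genes all 8 had a UMI, with summed levels of 75.9 and 419 CPM against 1256 and 1501 CPM in non-epithelial cells. Of 6 notochord genes, another axial structure with Foxa2 and Shh, only Noto was at 0, and the defining gene T had 3 and 2 UMIs. The summed notochord level was 102 and 154 CPM, most of it Col2a1, against 90.7 and 118 CPM in non-epithelial cells. The 8 second heart field genes, Osr1 and Isl1 among them, summed to 235 and 322 CPM against 437 and 391 CPM there. Of 7 macrophage genes 5 were at 0, of 7 endothelial genes Cdh5, Emcn and Esam were at 0, and of 11 floor plate and neural tube genes 7 were at 0. The 10 hepatoblast genes outside the gate summed to 782 and 618 CPM, against 99.6 and 36.4 CPM in Nkx2-1-positive endoderm and 7513 and 7212 CPM in hepatoblasts. In replicate 2 a single Nkx2-1-negative cell had 44.4% of its UMIs from haemoglobin genes, and the summed level of the 7 erythroid genes was 842 and 11114 CPM. Of the calls named below, Shh and Epha7 (against Nkx2-1-positive cells), Osr1, Hhex, Rrm2, Prox1 and Hbb-y were lost without cells carrying markers of other types, and Dcn, Thbs1, Hoxb4, Fzd7 and Col1a1 got no test there.

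Regional genes were found in overlapping shares of the Nkx2-1-negative cells. Id2, of the lung, trachea and thyroid list, was in 73.1% and 75.8% of cells, and the factors named in this paragraph were in smaller shares. Of 64 genes in 4 regional lists, 39 had at least 10 UMIs over both libraries. Sox2 RNA was found in 21 and 23 cells (22.6% and 23.2%), Isl1 in 23 and 33 cells and the endoderm and gut factor Gata6 in 31 and 24 cells. The posterior factors Onecut1 and Onecut2, cut-homeobox regulators of liver and pancreas development, were in 22 and 7 and in 22 and 6 cells. Replicate 1 was higher for both Onecut genes, and the exact intervals of each share did not overlap between the libraries (for Onecut2 15.5% to 33.6% and 2.26% to 12.7%). Pdx1, required for pancreas formation, was in 5 and 3 cells. Of the pharyngeal list, Nkx2-6 was in 12 and 21 cells, Pax9 in 6 and 11, Nkx2-5 in 6 and 9, Tbx1 in 4 and 7 and Nkx2-3 in 1 and 9. The pouch-derivative genes Gcm2 (parathyroid) and Foxn1 (thymus) were at 0 UMIs, as were Neurog3, Cdx1, Sftpc and Tg, markers of endocrine, hindgut, lung and thyroid differentiation.

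**Figure D1:**
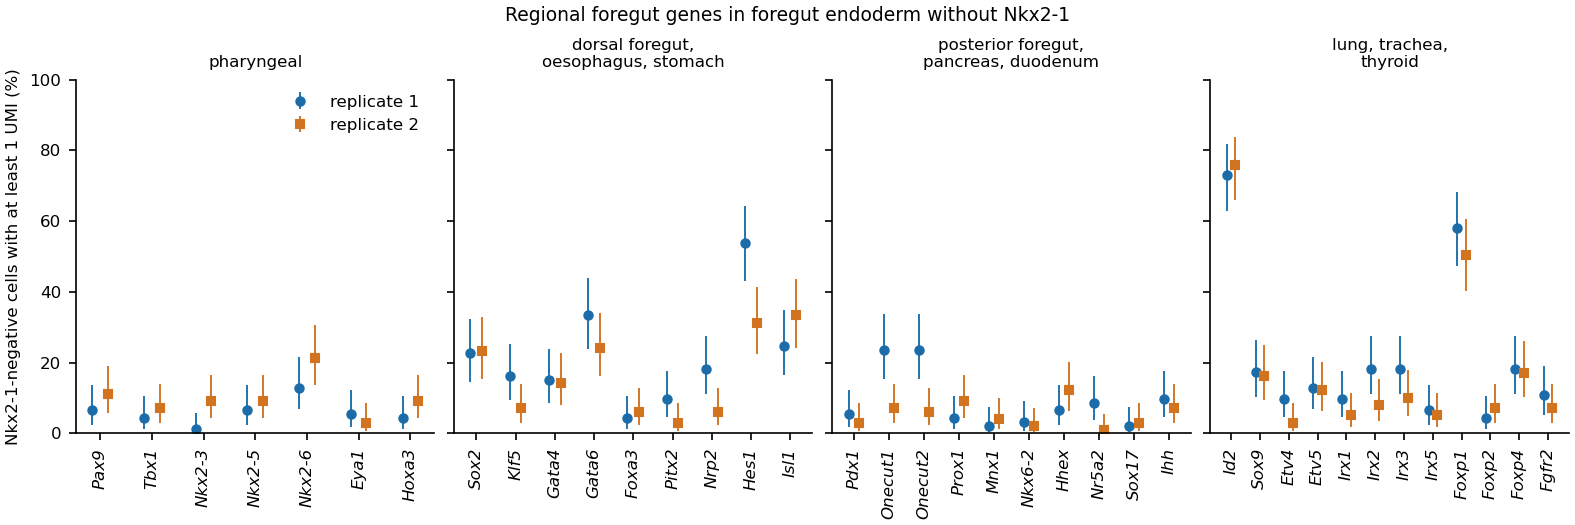
Share of Nkx2-1-negative cells with at least 1 UMI of regional genes that had at least 10 UMIs over both libraries. Points are the 2 replicates (93 and 99 cells), bars are exact 95% binomial intervals, and the libraries' intervals do not overlap for Onecut1, Onecut2 and Hes1.

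These shares depend on depth, so each cell was also thinned to 1500 UMIs, which left out 8 and 12 shallower cells. At that depth Sox2 was found in 4.71% and 9.2% of Nkx2-1-negative cells, Gata6 in 11.8% and 16.1%, and Onecut2 in 10.6% and 2.3%. Free RNA was judged from 164 and 145 erythroid cells, with medians of 3407 and 6164 UMIs. Sox2 and Pax9 were in none of them, which allows shares of up to 1.83% and 2.07%. Over the 39 regional genes the median share in erythroid cells was 0% in both libraries and the highest was Id2 at 8.54% and 8.28%. Prox1 alone had a share at or below that in erythroid cells, in replicate 1 (4.3% against 4.88%). Its UMIs there lay in 4 Nkx2-1-negative cells, with 11 of 21 in a single cell, against 11 UMIs in 8 erythroid cells with at most 2 each. Its share of cells in that library is not read as expression.

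Against Nkx2-1-positive foregut endoderm, Nkx2-1-negative cells had more RNA of Nepn, of the Wnt antagonist Sfrp5 and of Rbp4, Ttr and Apoe, and less RNA of lung-associated Wnt7b and Etv5 and of Shh and Isl1. Of 5295 genes tested, 15 were higher (0.283% of those tested) and 12 lower (0.227%) at an adjusted p under 0.05. In all 27 the libraries of the compared classes did not overlap, which was also the case in 16.3% (higher) and 14.4% (lower) of all genes tested. All 27 differed by over 2-fold. The median log2 fold change over all genes was 0.03.

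Nepn, which encodes nephrocan, a secreted leucine-rich repeat protein, reached 1348 and 247 CPM in Nkx2-1-negative cells of replicates 1 and 2 and had 0 UMIs in Nkx2-1-positive cells of both. It was found in 27 and 10 Nkx2-1-negative cells (29.0% and 10.1%), with 1 to 122 UMIs a cell in replicate 1 (median 11) and 1 to 44 in replicate 2 (median 7.5). A few cells carried most of it: 4 and 2 cells held 50% of its UMIs. Against the limit of 3 UMIs per library that a count of 0 allows, Nepn was at least 22.4-fold higher (adjusted p = 7.69e-12). Replicate 1 held both the higher level and the larger share of cells, and the exact intervals of the shares did not overlap. The call was lost with DESeq2 (adjusted p = 0.982) and without the library term. Nepn had 0 UMIs among barcodes of 10 to 200 UMIs, was in 27 and 9 of 3432 and 4070 non-epithelial cells and in 2 and 0 of 164 and 145 erythroid cells.

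Rbp4, the plasma carrier of retinol, was at 324 and 241 CPM in Nkx2-1-negative cells against 5.53 and 0 CPM in Nkx2-1-positive cells, where it had 1 UMI. The ratio was 67.3 with an exact 95% counting interval of 12.0 to 2666 (adjusted p = 6.79e-08), and it stayed past the threshold in all 11 alternative analyses that gave it a value. Sfrp5, a secreted Wnt antagonist of the ventral foregut, was at 93.2 and 115 CPM against 0 UMIs, at least 2.92-fold higher (adjusted p = 0.00231). It was found in 16 and 12 Nkx2-1-negative cells. Dcn, which encodes the matrix proteoglycan decorin, was at 58.7 and 111 CPM against 0 UMIs, at least 2.38-fold higher (adjusted p = 0.0311). Dcn came from 14 and 18 cells with at most 7 and 8 UMIs each. Dcn was also on the mesenchyme marker list, where it was the only member of 5 tested that passed. The 10 mesenchyme genes summed to 102 and 219 CPM in Nkx2-1-negative cells and 60.9 and 18.2 CPM in Nkx2-1-positive cells, and their part in the Dcn result was not tested. Ripply3, a corepressor that acts with Tbx1 in the pharynx, was at 238 and 178 CPM against 66.4 and 0 CPM (log2 2.11 ± 0.50, adjusted p = 0.0494). Both Nkx2-1-negative libraries lay above both Nkx2-1-positive ones for these 5 genes.

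The metallothionein genes Mt1 and Mt2, whose proteins bind zinc and copper, were also higher. Mt1 was at 937 and 789.9 CPM against 249 and 291 CPM (log2 1.72 ± 0.22, 3.3-fold, adjusted p = 3.33e-05), and Mt2 was 3.2-fold higher. Igfbp5, an insulin-like growth factor binding protein, was 2.47-fold higher, the actin-binding genes Cald1 and Tmsb4x 2.54-fold and 2.44-fold higher, and the chromatin remodeller gene Hells 2.16-fold higher.

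Of 7 hepatoblast marker genes tested, 3 were higher (Ttr, Fgb and Rbp4). Their median log2 fold change was 6.15 by the fit and 1.77 with genes at 0 UMIs set to their bound, against 0.03 over all genes. Ttr (thyroid hormone carrier) was at 250.3 and 219 CPM against 88.5 and 18.2 CPM. Fgb (fibrinogen beta chain) was at 75.9 and 49.4 CPM against 0 UMIs. In replicate 2 that is below the 54.7 CPM which a count of 0 allows there, so that library alone sets no difference, while the limit in replicate 1 is 16.6 CPM. Outside the list, Apoe (lipid carrier) was at 107 and 130.3 CPM against 27.7 and 18.2 CPM, and Ambp (alpha-1-microglobulin and bikunin) at 135 and 86.9 CPM against 5.53 and 0 CPM. Ttr, Fgb, Apoe and Ambp all had an adjusted p under 0.05. Hepatoblasts held 2044 and 2422 CPM of Ttr and 2122 and 1779 CPM of Fgb. In each library a single Nkx2-1-negative cell carried 59.1% and 56% of the Fgb UMIs. Leaving out the cells that held any UMI of the 4 liver genes kept 72 and 86 Nkx2-1-negative cells, and 9 of the 15 higher and 5 of the 12 lower calls were kept. Rbp4 (adjusted p = 0.0458), Nepn, Sfrp5 and Dcn still passed, and Ttr, Apoe, Fgb, Ambp, Ripply3, Cald1, Shh, Isl1, Epha7, Lmo7, Mbip, Thbs1 and Wls did not.

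Of the genes that were lower, Wnt7b, a Wnt ligand of the lung epithelium, was at 0 and 9.87 CPM in Nkx2-1-negative cells against 122 and 91.1 CPM in Nkx2-1-positive cells (log2 -4.63 ± 0.91, adjusted p = 0.00798). Etv5, an ETS factor of the FGF response, was at 22.4 and 33.6 CPM against 138 and 219 CPM (6.32-fold lower, adjusted p = 0.0011). Isl1, a LIM homeobox factor of the second heart field that the foregut also carries, was at 79.4 and 122 CPM against 277 and 200.4 CPM (2.56-fold lower, adjusted p = 0.0311). Of 9 lung, trachea and thyroid genes tested, 2 were lower and none higher, with a median log2 fold change of -1.24. The others lay between Foxp2 at -2.07 (adjusted p = 0.128) and Foxp1 at -0.14. Also lower were Igfbp2 (2.17-fold), the Wnt-secretion gene Wls (2.16-fold), the ephrin receptor gene Epha7 (4.07-fold), Thbs1 (6.79-fold), Lmo7 (4.94-fold) and Capn6 (2.68-fold). In replicate 2 the highest Nkx2-1-positive cell for Igfbp2 held 75.8% of its UMIs in that class. That share was 54.5% for Thbs1, 50% for Epha7, 46.7% for Capn6, 46.2% for Wls and 20% for Lmo7. In replicate 1 it was 31.8% for Epha7 and lower for the other genes.

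Of the lower genes, AC154734.1 and Mbip lie near Nkx2-1 itself on chromosome 12 (GRCm38, GENCODE M21: Nkx2-1 at 56531958 to 56536908, minus strand). AC154734.1, an unnamed noncoding transcript noted here after its values were seen, spans 56488321 to 56529427 on the same strand, 2530 bases from Nkx2-1. It was at 5.18 and 3.95 CPM against 177 and 128 CPM (31.2-fold lower, adjusted p = 0.000851). Mbip, at 56328303 to 56345894 and 186063 bases away, was at 58.7 and 75.0 CPM against 227 and 182 CPM (3.2-fold lower, adjusted p = 0.00735). Neither overlaps Nkx2-1 in that annotation. On the other side, Nkx2-9 (74480 bases away) had 0 and 1 UMIs in Nkx2-1-negative cells, and Pax9 (154858 bases away) was at 29.3 and 39.5 CPM against 5.53 and 0 CPM. Both were too low for the fit. Whether reads past the annotated end of Nkx2-1 were counted to its neighbour was not tested.

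**Figure D2:**
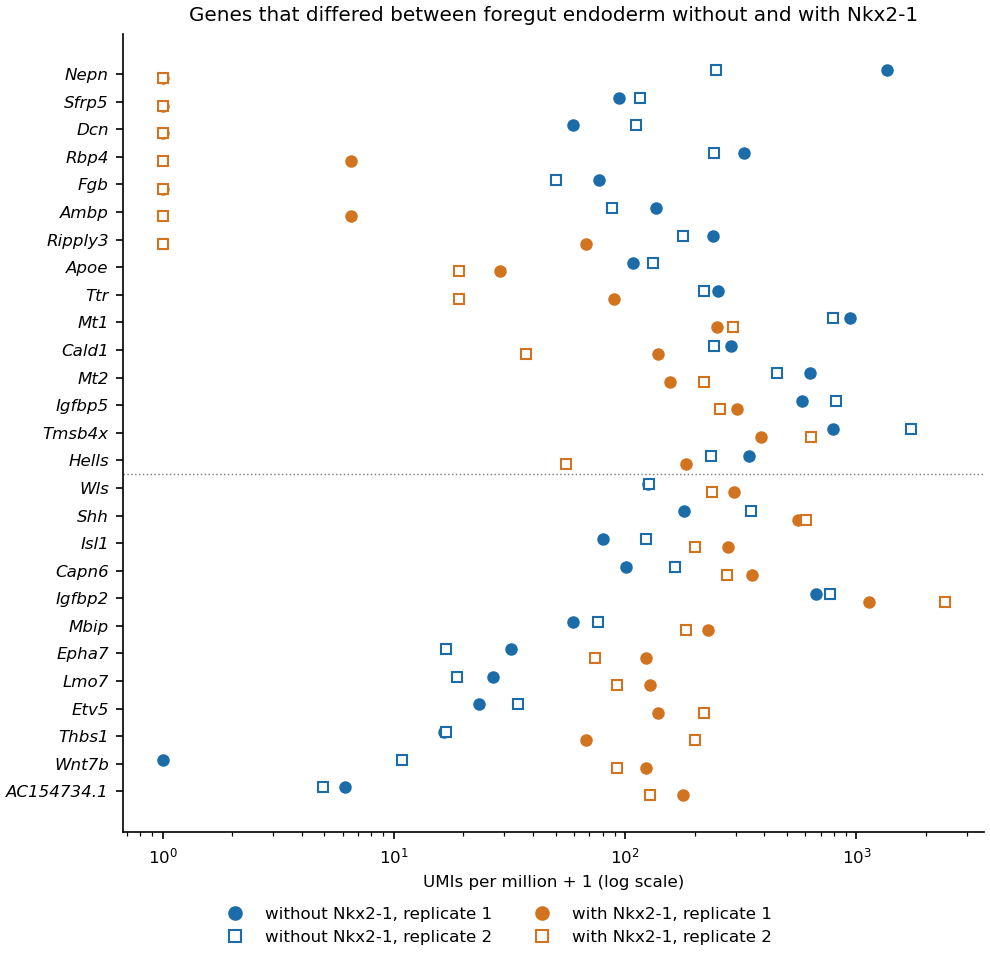
Levels of the 27 genes that differed between foregut endoderm without Nkx2-1 (blue) and with it (orange), in CPM plus 1 on a log axis, with 1 point per library (filled circles replicate 1, open squares replicate 2). Genes above the dotted line were higher without Nkx2-1. For every gene the blue and orange points do not overlap, and Nepn, Sfrp5, Dcn and Fgb sit at 0 UMIs in Nkx2-1-positive cells.

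This comparison rests on 9 Nkx2-1-positive cells in replicate 2. Without the library term, which pairs classes from the same embryo pool, 1 gene was higher (Rbp4) and 1 lower, and with DESeq2 5 were higher and 7 lower. Sfrp5, Dcn, Ripply3, Ttr, Apoe, Fgb, Ambp, Cald1, Hells, Isl1, Shh, Epha7, Lmo7 and Capn6 were not called by DESeq2.

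Promoters of the named genes were read to show the sequence beside the genes that changed most. Of 3 motifs searched, 2 are reported. A window of 250 bases before to 50 after the start site was found in RefSeq (GRCm38.p6) for 12 of the 15 higher and 8 of the 12 lower genes. The forkhead core TGTTTAC, on either strand, was in the windows of 4 of those 12 (Nepn, Rbp4, Apoe and Cald1) and of 1 of those 8 (Etv5), against 4.05% of the 27025 genes in the table. The NKX2-1 core CACTTGA was in none of either, against 3.60% of genes. Neither motif contains the other. The windows of Nepn and Rbp4 are shown since these genes had the smallest adjusted p, in 5′ to 3′ direction of the gene, with the forkhead core or its reverse complement in capitals. Nepn lies on the plus strand at chr10:52391358-52391657 and the core starts 158 bases before the start site. Rbp4 lies on the minus strand at chr19:38125272-38125571 and the core starts 241 bases before the start site. A match is a run of letters and not a measured binding site.
Nepn: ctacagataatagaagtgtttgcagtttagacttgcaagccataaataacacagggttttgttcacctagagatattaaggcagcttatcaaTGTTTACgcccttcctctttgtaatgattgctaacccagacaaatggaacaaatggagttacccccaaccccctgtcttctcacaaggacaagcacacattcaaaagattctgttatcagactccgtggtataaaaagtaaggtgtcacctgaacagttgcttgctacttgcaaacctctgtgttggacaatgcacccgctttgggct
Rbp4: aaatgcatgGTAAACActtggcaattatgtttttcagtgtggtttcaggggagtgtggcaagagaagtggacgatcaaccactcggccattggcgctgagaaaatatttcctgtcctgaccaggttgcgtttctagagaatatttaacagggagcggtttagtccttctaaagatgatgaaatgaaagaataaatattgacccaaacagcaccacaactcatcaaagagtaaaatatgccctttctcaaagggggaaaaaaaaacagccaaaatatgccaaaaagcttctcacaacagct

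The Nkx2-1-negative cells that carried Nepn were set beside those that did not, as a description with no test, since this split was made after the values were seen. The 27 and 10 cells with Nepn had medians of 4368 and 4665 UMIs, and the 66 and 89 cells without it 3712.5 and 3231. Rbp4 was at 959 and 1345 CPM with Nepn and 87.7 and 98.1 CPM without. Sfrp5 was at 318 and 638 CPM against 9.48 and 46.8 CPM, and Onecut2 at 356 and 103 CPM against 23.7 and 6.69 CPM. Pdx1 was found in 4 and 3 cells with Nepn and in 1 and 0 cells without. Gata4, a zinc-finger factor of the ventral foregut and the heart, was at 121 and 138 CPM against 7.11 and 20.1 CPM, Klf5 at 82.6 and 69.0 CPM against 16.6 and 11.2 CPM, and Mt1 at 2058 and 3035 CPM against 519 and 499.6 CPM. In both libraries each of these 7 genes was higher beside Nepn. The level of Ttr did not follow, at 267 and 207 CPM with Nepn and 244 and 221 CPM without. Its share of cells did, at 51.9% and 50% with Nepn against 21.2% and 23.6% without.

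Genes of the pharyngeal list differed among themselves. Pax9, Tbx1 and Nkx2-3 had 0 UMIs in the cells with Nepn of both libraries, and were found in 6 and 11, 4 and 7 and 1 and 9 cells without it. Ripply3 was at 25.4 and 0 CPM with Nepn and 318 and 201 CPM without. The anterior Hox gene Hoxb1 was at 6.35 and 0 CPM against 116 and 98.1 CPM. Isl1 was at 38.1 and 34.5 CPM against 94.8 and 134 CPM. Ripply3, Hoxb1 and Isl1 were lower beside Nepn in both libraries. Nkx2-6, found in more cells than the other pharyngeal list genes named, was not, at 50.8 and 34.5 CPM with Nepn and 21.3 and 84.7 CPM without. It was higher beside Nepn in replicate 1 and lower in replicate 2. Shh was at 152 and 103 CPM against 187 and 379 CPM and Sox2 at 44.5 and 51.7 CPM against 73.5 and 80.3 CPM, lower in level with Nepn by less than 4-fold in each library. The shares of cells did not move 1 way. Shh was in 40.7% and 50% of cells with Nepn against 47.0% and 41.6% without, and Sox2 in 22.2% and 30% against 22.7% and 22.5%.

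The cells with Pax9 or Pax1 numbered 6 and 12, under the 20 per library set for a test, so their values are also a description. They were deep, with medians of 13286 and 6223 UMIs against 3572 and 3231. Tbx1, a T-box factor of the pharyngeal pouches, was at 236 and 108 CPM with them and 2.04 and 7.24 CPM without, and Ripply3 at 864 and 271 CPM against 124 and 157 CPM. Nkx2-5, a homeobox factor of the heart that pharyngeal endoderm also carries, was at 135 and 163 CPM against 4.08 and 21.7 CPM. Hoxb1 was at 449 and 163 CPM against 20.4 and 70.0 CPM, and Pyy, which encodes a gut peptide hormone, at 236 and 282 CPM against 22.4 and 113 CPM. Nepn, Sfrp5, Rbp4, Onecut2, Pdx1, Klf5 and Gata4 had 0 UMIs in the cells with Pax9 or Pax1 in both libraries, and Mt1 was at 67.3 and 108 CPM against 1095 and 942 CPM. In the other cells these 7 genes were in 5.75% (Pdx1) to 31.0% (Nepn) of cells in replicate 1. In replicate 2 they were in 3.45% (Pdx1) to 23.0% (Rbp4). For the rarer of them, 0 UMIs among 6 and 12 cells says little.

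**Figure D3:**
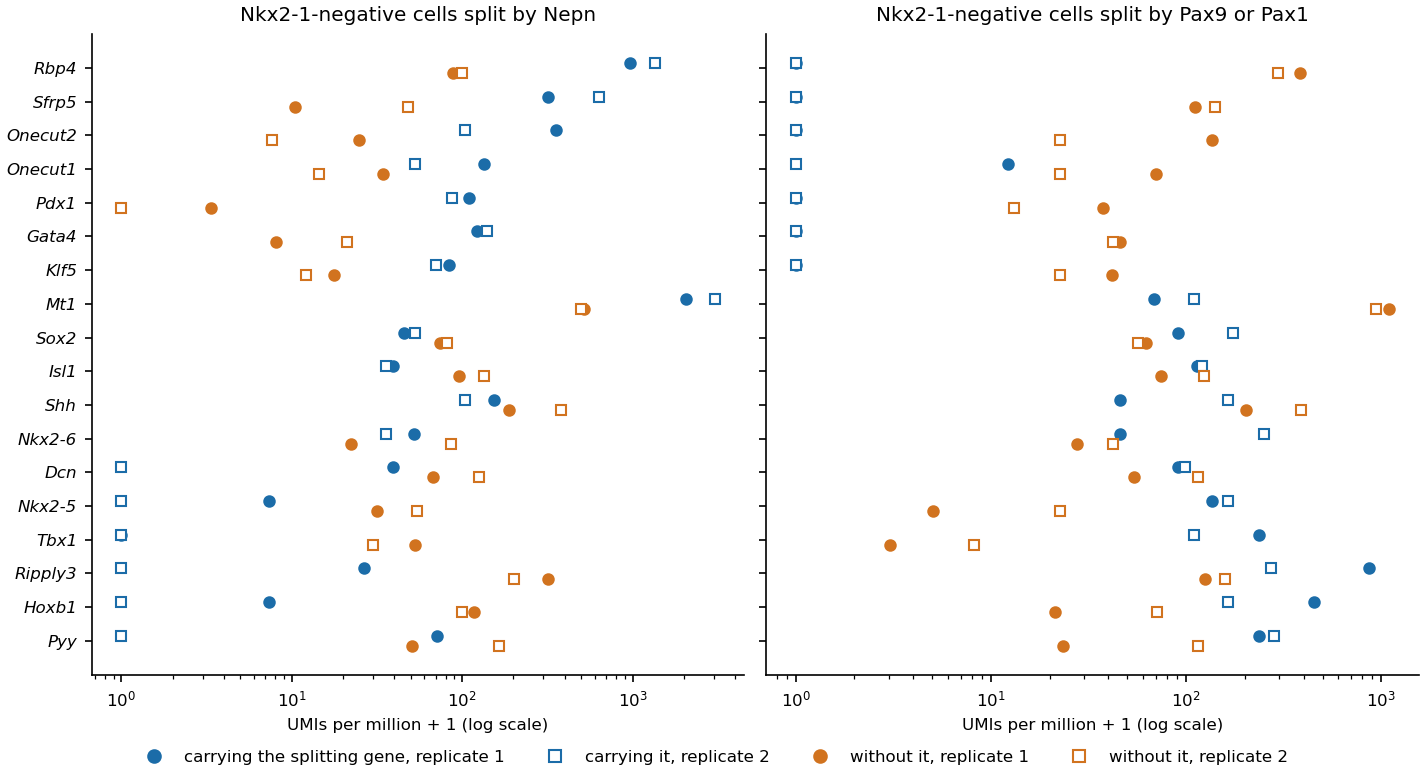
Levels of regional and named genes in Nkx2-1-negative cells that carry (blue) or lack (orange) Nepn in the left panel, and Pax9 or Pax1 in the right panel, in CPM plus 1 on a log axis with 1 point per library. Rbp4 to Mt1 lie to the right with Nepn in both libraries. Of these 8 genes 6 are at 0 UMIs in the cells with Pax9 or Pax1, which number only 6 and 12. Tbx1, Ripply3 and Hoxb1 lie to the right with Pax9 or Pax1.

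Sox2, a factor of the anterior and dorsal foregut, divided the Nkx2-1-negative cells into 21 and 23 cells with it and 72 and 76 without. The cells with Sox2 were deeper (medians 9459 and 4756 UMIs against 3132 and 2800). No gene was higher with Sox2 (0.0% of 5519 tested by edgeR, 175 at an unadjusted p under 0.05, and 0 by DESeq2), and 13 were lower (0.236%). Of 7 hepatoblast marker genes tested 4 were lower (Ttr, Fgb, Serpina1b and Rbp4), with a median log2 fold change of -3.38 by the fit and -2.83 with genes at 0 UMIs set to their bound (-0.01 over all genes). Rbp4 was at 56.5 and 22.8 CPM with Sox2 and 501 and 357 CPM without (10.4-fold lower, adjusted p = 4.69e-09). Ttr was at 73.9 and 17.1 CPM against 366 and 326 CPM (7.11-fold lower), and Apoe at 13.0 and 17.1 CPM against 169 and 190.4 CPM (11.9-fold lower). Fgb, Serpina1b, Serpinf2, Itih2 and Ambp were lower as well, of which DESeq2 did not call Fgb, Serpina1b and Serpinf2. The libraries did not overlap for any of these 8, which was also the case in 15.4% of all genes tested in that direction. Shares of cells differed less in replicate 1. Ttr was in 33.3% of cells with Sox2 and 29.2% without there, and in 8.70% and 31.6% in replicate 2. Rbp4 was in 23.8% and 29.2% in replicate 1, and in 13.0% and 22.4% in replicate 2.

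Nepn was at 657 and 103 CPM with Sox2 and 1803 and 323 CPM without (log2 -1.51 ± 0.16, adjusted p = 1.5e-06), lower with Sox2 within each library although the libraries overlapped. The share of cells with Nepn was 28.6% with Sox2 and 29.2% without in replicate 1, and 13.0% and 9.21% in replicate 2, and the call was lost without the library term (adjusted p = 0.998). Dlk1, an imprinted transmembrane gene high in hepatoblasts (4249 and 5739 CPM), was at 87.0 and 131 CPM against 541 and 438 CPM. Cdkn1c, an imprinted inhibitor of cyclin-dependent kinases, was 2.11-fold lower. Prox1, a homeobox factor of liver and pancreas progenitors, had 0 UMIs with Sox2 and was at 60.1 and 36.3 CPM without, at least 3.2-fold lower (adjusted p = 0.00909). This call held in 3 of 8 alternative analyses and was lost with DESeq2, thinning, no library term, and without cells carrying liver gene UMIs or markers of other types. In replicate 1 it rests on 4 cells. The haemoglobin gene Hbb-y was called lower too, but 88.2% of its UMIs in replicate 2 lay in a single cell, and it did not pass without cells carrying markers of other types. Without the cells that held any liver gene UMI, 0 genes passed in either direction (155 higher and 176 lower at an unadjusted p under 0.05), and Nepn did not pass. Of the other regional factors, Pax9 was at 60.9 and 62.7 CPM with Sox2 and 8.59 and 27.2 CPM without (adjusted p = 0.524), Hoxb1 at 148 and 119.7 CPM against 45.8 and 69.5 CPM (adjusted p = 0.258) and Shh at 117 and 439 CPM against 218 and 299 CPM (adjusted p = 0.996).

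**Figure D4:**
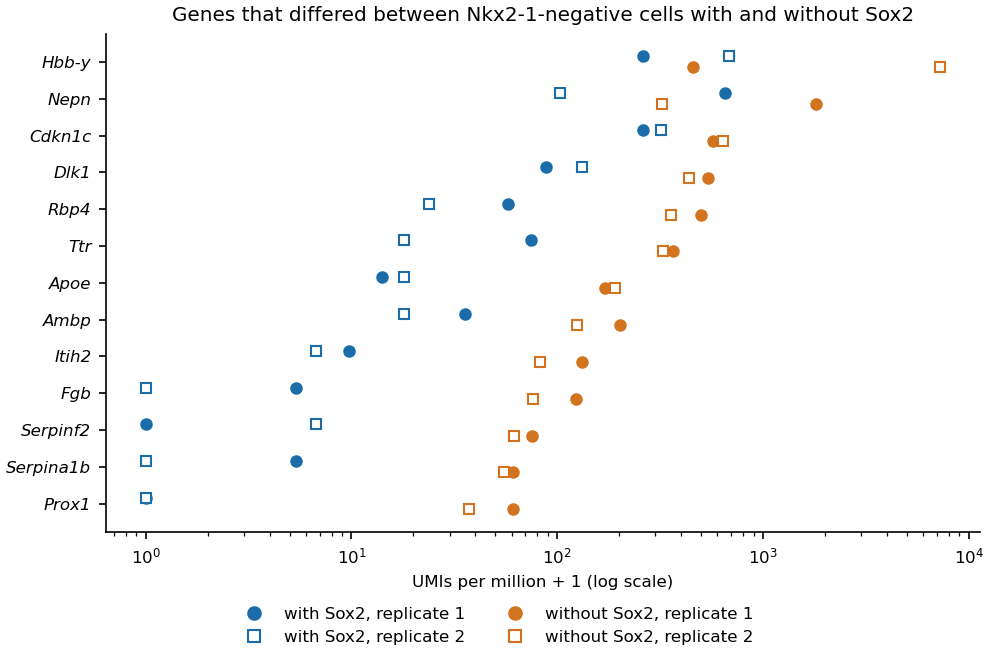
Levels of the 13 genes that were lower in Nkx2-1-negative cells with Sox2 (blue) than without it (orange), in CPM plus 1 on a log axis, with 1 point per library. Rbp4, Ttr and Apoe are separated in both libraries, and the Hbb-y value of replicate 2 without Sox2 rests on a single cell.

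Of the Hedgehog pathway genes, Shh differed between Nkx2-1-negative cells and each of the 3 classes compared. It was at 178 and 348 CPM, in 42 and 42 cells, against 559 and 601 CPM in Nkx2-1-positive endoderm, 35.9 and 0 CPM in surface ectoderm and 3.39 and 3.63 CPM in non-epithelial cells. Nkx2-1-negative cells lay between the classes in both libraries. Shh was 2.35-fold lower than in Nkx2-1-positive cells (log2 -1.23 ± 0.24, adjusted p = 0.00735) and 68.9-fold higher than in non-epithelial cells (adjusted p = 1.37e-17). The log2 difference from Nkx2-1-positive cells was -0.55 without replicate 1 and -1.57 without replicate 2, and its call held in 6 of 11 alternative analyses. It was lost with DESeq2, thinning, no library term, and without cells carrying liver gene UMIs or markers of other types. In replicate 2 a single cell held 19.9% of its UMIs. Ihh, the related ligand of the gut endoderm, had 14 and 9 UMIs in 9 and 7 cells. The receptor gene Ptch1, itself a target of the pathway, was at 51.8 and 45.4 CPM against 42.3 and 31.7 CPM in non-epithelial cells (log2 0.32 ± 0.28, adjusted p = 0.547). The transducer Smo was at 53.5 and 49.4 CPM against 40.8 and 38.7 CPM (adjusted p = 0.544). The coreceptor Gas1 was 5.93-fold lower than in non-epithelial cells and 16.3-fold lower than in surface ectoderm, at 19.0 and 7.9 CPM. The target genes Gli1 (2 and 4 UMIs) and Hhip (0 and 1 UMIs) were too low for the fit. Of 21 pathway genes 5 were tested, and Shh and Gas1 alone passed against any class.

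Against surface ectoderm, the other epithelium of the tissue, 48 genes were higher (0.907% of 5295) and 66 lower (1.25%). Sox2 was at 65.6 and 77.0 CPM against 0 and 9.48 CPM (9.87-fold by the fit, adjusted p = 0.0286), a call lost with DESeq2 and without the library term. Nepn, Rbp4, Cpm (carboxypeptidase M), Gata6, Vtn (vitronectin) and the zinc-finger gene Mecom had 0 UMIs in ectoderm and were at least 23.4-fold, 8.3-fold, 4.94-fold, 2.22-fold, 3.25-fold and 2.41-fold higher. DESeq2 did not call Nepn here (adjusted p = 0.647). The carbonic anhydrase gene Car4 was at 558 and 498 CPM against 108 and 114 CPM (4.69-fold higher, adjusted p = 3.77e-07). Apela, the ligand of the apelin receptor, was at 112 and 243 CPM against 18.0 and 14.2 CPM (12.7-fold higher). Epithelial Wnt ligands were on the ectoderm side, with Wnt6 at 5.18 and 5.92 CPM against 611 and 299 CPM (72.9-fold lower, adjusted p = 1.85e-08). Wnt3 and the ectoderm factors Tfap2a and Foxi2 were lower as well, Foxi2 with 1 UMI in Nkx2-1-negative cells. The 4 tested surface ectoderm markers outside the gate were all lower. Of 24 epithelial junction and identity genes tested only Krt19 and Perp differed, both lower, with a list median of 0.01 (0.01 over all genes). These epithelial genes are of the kind by which both classes were chosen.

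Against non-epithelial cells, 434 genes were higher (8.2% of 5295) and 296 lower (5.59%). The gate selected epithelial cells, so this contrast describes what else comes with the gate. Of 24 epithelial junction and identity genes tested 23 were higher, with a median log2 fold change of 4.66 (-0.01 over all genes). Among them were the tight junction genes Cldn4 (181 and 223 CPM against 2.6 and 4.93 CPM) and Cldn7, the splicing regulator Esrp1 and the epithelial factor Grhl2 (41.4 and 49.4 CPM against 1.35 and 1.71 CPM). Of 15 basement membrane and matrix genes tested 11 were higher, such as the laminin gene Lama5 (8.7-fold) and Vtn (24.5-fold), and Col1a1 and Col3a1 were lower. Outside the lists, Nepn (194-fold), the protease gene Tmprss2 (113-fold), the carboxypeptidase gene Cpn1 (68.2-fold), Car4 (47.5-fold) and Pyy (42.2-fold) were higher. DESeq2 did not call Nepn in this comparison either (adjusted p = 0.489). All 5 posterior foregut factors tested were higher, among them Onecut1 (log2 4.73 ± 0.54) and Onecut2 (3.83 ± 0.40). Without the cells that held liver gene UMIs, Prox1, Hhex and Nr5a2 were no longer called and their log2 difference turned negative, and Prox1 and Hhex were also lost without cells carrying markers of other types. The 3 cardiomyocyte genes tested and the 6 erythroid genes tested were lower, Tnnt2 at 8.63 and 55.3 CPM against 352 and 332 CPM.

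**Figure D5:**
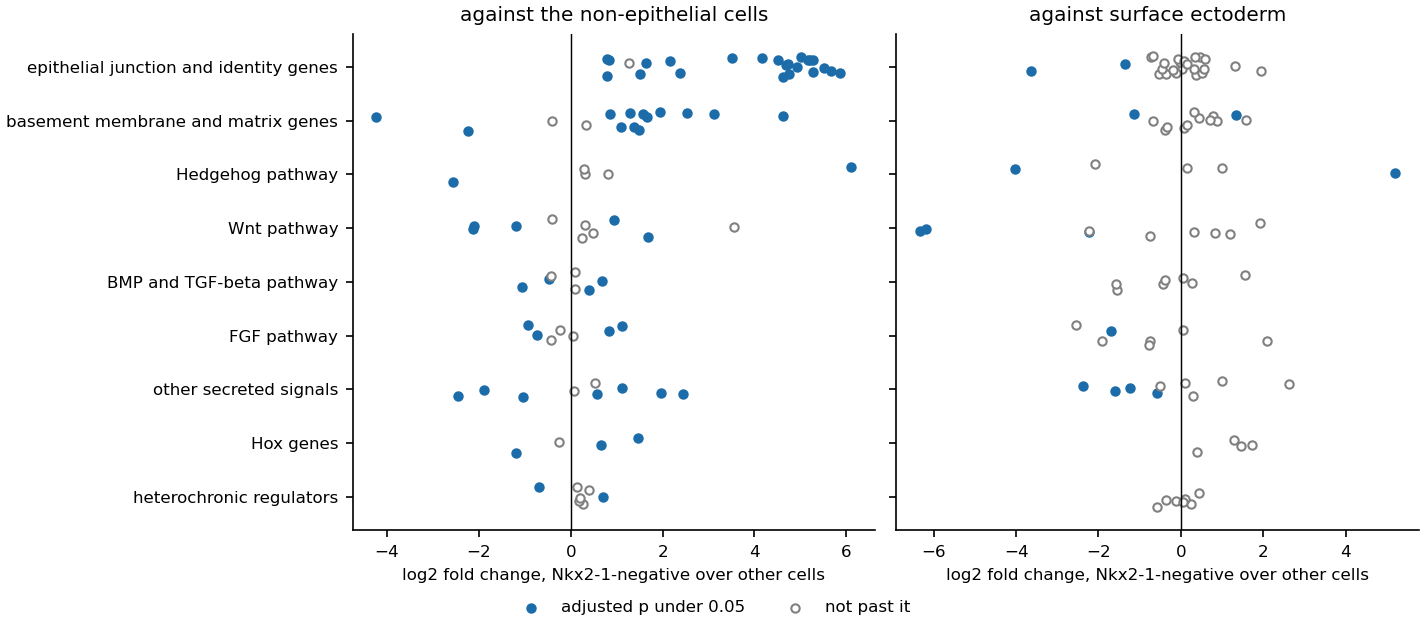
Log2 fold change of each tested list gene in Nkx2-1-negative cells over non-epithelial cells (left) and over surface ectoderm (right). Filled points passed an adjusted p of 0.05, and genes with 0 UMIs in either class are not drawn. Epithelial genes lie far to the right on the left panel and around 0 on the right panel, and the Hedgehog point near 6 is Shh.

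Secreted signals and their regulators differed from the non-epithelial cells in both directions. Of 10 Wnt pathway genes tested, Sfrp5 (93.2 and 115 CPM against 30.5 and 30.7 CPM, 3.2-fold higher) and the receptor gene Fzd7 were higher, and Wnt2, Sfrp1 and Lef1 lower. Of 7 BMP and TGF-beta genes, Id1 and Id2 were higher and Bmp4 and Id3 lower. Bmp4, a ligand of the second heart field and ventral foregut region, was at 10.4 and 69.1 CPM against 67.2 and 82.1 CPM (adjusted p = 0.0127), and the libraries of the classes overlapped. Of 9 other secreted signals tested, Vegfa, Pdgfa, Sema3c and Mdk were higher and Cxcl12, Kitl and Ptn lower. Sema3c, a semaphorin that guides cardiac neural crest and outflow tract cells, was at 100.1 and 88.9 CPM against 17.5 and 15.6 CPM (5.4-fold higher, adjusted p = 1.95e-08). Among retinoic acid genes, the receptor gene Rarb was higher and Crabp1 lower. Both Notch pathway genes tested, Hes1 and Hes6, were higher. Osr1, a zinc-finger factor on the second heart field list, was at 143 and 113 CPM against 79.3 and 67.3 CPM (1.65-fold higher, adjusted p = 0.00327), but did not pass with DESeq2 or without cells carrying markers of other types. DESeq2 also did not call Fzd7, Wnt2, Id1, Id3, Bmp4, Kitl, Rarb and Hes6. Of the genes named in this paragraph, Sfrp5 alone passed against Nkx2-1-positive endoderm.

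Heterochronic regulators, genes of early developmental timing such as the RNA-binding protein genes Lin28a and Lin28b, showed small differences. Lin28a was at 124 and 148 CPM against 58.6 and 105 CPM in non-epithelial cells (1.63-fold higher, adjusted p = 0.00767). Its paralog Lin28b was at 69.0 and 45.4 CPM against 99.1 and 75.2 CPM (1.6-fold lower, adjusted p = 0.0257). Hmga2, which encodes an AT-hook chromatin protein, was at 769.8 and 509.5 CPM against 561 and 434 CPM (log2 0.28 ± 0.10, adjusted p = 0.0523), and Igf2bp1, Igf2bp2, Igf2bp3 and Mycn did not pass either. DESeq2 called neither Lin28a nor Lin28b. None of the 7 tested passed against Nkx2-1-positive endoderm, where log2 differences ran from -0.42 (Mycn) to 0.19 (Lin28b).

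Of the Hox genes, 4 were tested. Hoxb1 was at 86.3 and 86.9 CPM, in 12 and 19 cells, against 49.2 and 55.0 CPM in non-epithelial cells (log2 0.66 ± 0.22, adjusted p = 0.0429). Hoxc4 was at 91.5 and 77.0 CPM against 36.9 and 21.6 CPM (2.76-fold higher, adjusted p = 9.74e-05), and Hoxb4 at 34.5 and 31.6 CPM against 90.4 and 53.0 CPM (2.3-fold lower, adjusted p = 0.00241). DESeq2 called none of these 3. Hoxa7, Hoxa9, Hoxb8, Hoxb9, Hoxc6, Hoxc8, Hoxd3, Hoxd4 and Hoxd8 had 0 UMIs in Nkx2-1-negative cells of both libraries, a limit of 5.18 and 5.92 CPM, while Hoxd4 was at 46.0 and 16.2 CPM in non-epithelial cells. Few cell cycle genes passed. Of 20 S phase and 22 G2 and M phase genes, Hells alone passed against Nkx2-1-positive endoderm, and Rrm2 (lower) and Kif23 (higher) alone passed against non-epithelial cells, with list medians of -0.14 and 0.06 in the latter comparison.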

How the data were processed

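Drop-seq was run on 2 libraries of 1 group. The deposited values are whole-number UMI counts per gene and barcode from the authors' processing. The submitters' processing notes name mm10 and Scanpy. For the aligner, annotation and barcode rule, no source used here gives a name. The members and gene lists were chosen with earlier results of these data known.

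Barcodes needed 400 genes, and no more than 10% of UMIs could be mitochondrial. UMIs were summed per class and library (10 sums, or 12 with the Sox2 split) and fitted with edgeR 4.0.16 in R 4.3.3 (quasi-likelihood test, TMM scaling, low-count filter, a term for class and for library). Benjamini-Hochberg adjustment covered all genes tested, and a call is an adjusted p under 0.05. The 13 gating genes were left out of tests. DESeq2 1.42.0 was an alternative. Nothing says that the pools were biological replicates beyond separate pooling. With the library term, p-values measure how far differences between classes varied between these 2 libraries, pooled over classes and largely over genes. A shift that all classes of a library share is outside that measure. Residual degrees of freedom were 4, or 5 with the Sox2 split. The fit added a median of 24.4, or 23.8 with that split, from the spread of other genes. A small p-value is thus not a measure of how well the 2 libraries agreed for that gene alone. Class sums of a library come from the same embryo pool, which is the source of the pairing. The correlation of library deviations between classes ran from 0.0626 to 0.584 over 5258 genes. For each comparison the 12 largest log2 fold changes per direction could be named, among genes called, moving the same way in both libraries and at 50 CPM or more in the higher class. List members, gating, mitochondrial and ribosomal genes and unnamed models were outside that ranking. Regional, Hedgehog, heterochronic and Hox list members with 10 or more UMIs, marker genes, and the 6 members with the smallest p of each other list could also be named. List genes at or near 0 UMIs and AC154734.1 fall outside this rule and were named after their values were seen. Where a class had 0 UMIs, the fold is against 3 counts per library. Doublets were handled by removing the highest 5% of Scrublet scores in an alternative, and the code was tested on simulated data. Some items withheld from the text are not reported here.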

Additional observations from a re-analysis of the deposited data

How the results depend on the processing

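Against Nkx2-1-positive endoderm (15 higher, 12 lower), DESeq2 called 5 and 7 genes, thinning to 1500 UMIs 3 and 0 (47 and 42 at an unadjusted p under 0.05, edgeR), no low-count filter 32 higher, only the 2 endoderm classes 26 and 19, leaving out cells with liver gene UMIs 9 and 6, and leaving out cells with markers of other types 23 higher. Without the replicate block by library 1 and 1 were called. Against surface ectoderm (48, 66), DESeq2 called 30 higher, thinning 11 and 16, and no replicate block 21 and 23. Against non-epithelial cells (434, 296), DESeq2 called 265 and 139, thinning 78 and 49, no replicate block 163 and 85, and no filter 888 lower. For the Sox2 split (0, 13), DESeq2 called 7 lower, thinning 1 and 7, no filter 3 and 29, no replicate block 7 lower, leaving out other-type cells 3 higher and leaving out cells with liver gene UMIs 0 lower. Thinning and the low-count filter change how many genes are tested, and the cause of the other shifts was not tested. Both cell exclusions were chosen after seeing the data.

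Without cells carrying liver gene UMIs, the log2 difference from non-epithelial cells reversed for Prox1 (-1.34), Nr5a2 (-0.58), Hhex (-0.84) and Fgb (-0.59), and that of the Sox2 split for Serpinf2 (0.48) and Fgb (0.46). The share of Nkx2-1-negative cells was 3.83% and 3.15% at 800 genes per cell, 1.06% and 0.689% with 2 Foxa UMIs, and 1.54% in replicate 2 with 3 epithelial genes. After thinning, the shares with a UMI were 4.71% and 9.20% for Sox2, 7.06% and 16.1% for Isl1, 11.8% and 16.1% for Gata6, and 10.6% in replicate 1 for Onecut2. Without the low-count filter the median log2 difference of all genes was 0.15, 0.13 and -0.43 against the 3 classes. Without a replicate, fold changes have no test. Leaving out replicate 1 or 2 moved many log2 differences by at least the standard error of the main fit. Against Nkx2-1-positive cells this held for 21 and 14 of 26 named genes, and against surface ectoderm for 27 and 32 of 55. Against non-epithelial cells it held for 66 and 62 of 103, and in the Sox2 split for 8 and 7 of 13. No sign changed. The values from 1 library are differences of log2 CPM with a small added count, not fitted folds. How much of each move came from that change was not tested. The 2 libraries and 9 Nkx2-1-positive cells of replicate 2 limit what depth can show.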
